A study of Mus musculus with 42 samples.

Results

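The 10 transcripts described here encode proteins that hold back MAP kinase and CREB signalling, and they were followed in the main olfactory epithelium of mice that smelled food. They are the phosphatases Dusp1, Dusp4, Dusp5, Dusp6 and Dusp14, the sprouty-family inhibitors Spry2, Spry4 and Spred1, the kinase Sik1 and the transcription factor Crem. The members were taken by gene symbol, as 10 of the 44674 genes in the table, and all 10 were among the 21168 genes with enough counts to be tested. Adult male C57BL/6NCrl mice of 8 to 12 weeks were exposed for 1 h to the odour of normal chow (NCD), of a bacon-flavoured chow (Bacon) or of a lard-based high-fat diet (HFD), or were given no odour (No Odour). No genetic change was made in these mice, and each pool joined the epithelia of 4 mice. There were 5 No Odour, 6 NCD, 5 Bacon and 5 HFD pools. Each of the 21 pools gave an Input library of the whole tissue and a Ribo library, the messenger RNA pulled down with an antibody against phosphorylated ribosomal protein S6, a mark of recently active cells. A pulldown from whole epithelium holds the RNA of every cell type with phosphorylated S6, and in such bulk samples fewer cells of a type and less RNA per cell cannot be told apart.

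When an odorant binds its receptor, an olfactory sensory neuron depolarises, and cyclic AMP, calcium and the kinase ERK carry the signal to the nucleus. There CREB and the ternary complex factors switch on early genes, and some of these encode the pathway's own brakes. Dual-specificity phosphatases remove phosphate from MAP kinases, sprouty and Spred proteins act higher up between growth factor receptors, Ras and Raf, and Sik1 and short products of Crem act against CREB-driven transcription.

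The promoters of the 2 phosphatase genes with matches to CREB or serum response factor motifs are shown, because one of them, Dusp1, rose with every odour in the pulldown and the other, Dusp5, was not called with any. The sequences are the 250 bases before the RefSeq start on GRCm38.p6, at chr17:26508473-26508722 on the minus strand for Dusp1 and chr19:53528895-53529144 on the plus strand for Dusp5. Capitals mark the cyclic AMP response element TGACGTCA and its shorter form TGACG in Dusp1, and the CArG box and TGACG (read on the other strand) in Dusp5.
Dusp1: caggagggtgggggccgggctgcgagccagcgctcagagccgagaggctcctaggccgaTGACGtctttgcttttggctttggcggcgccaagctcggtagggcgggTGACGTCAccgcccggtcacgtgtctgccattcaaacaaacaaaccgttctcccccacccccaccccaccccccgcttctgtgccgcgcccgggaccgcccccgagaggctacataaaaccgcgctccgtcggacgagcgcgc
Dusp5: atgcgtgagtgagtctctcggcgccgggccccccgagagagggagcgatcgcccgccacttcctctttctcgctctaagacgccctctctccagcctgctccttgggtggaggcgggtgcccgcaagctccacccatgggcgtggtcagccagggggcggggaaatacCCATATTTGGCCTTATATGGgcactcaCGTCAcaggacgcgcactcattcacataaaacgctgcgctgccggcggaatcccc
The full element of Dusp1 lies at -143 to -136 from the start and the further TGACG at -191 to -187. The 2 CArG boxes of Dusp5 stand side by side at -82 to -73 and -72 to -63, with TGACG at -55 to -51. Both strands were searched in windows of 300 bases around the start, the full element also counts as TGACG, and TGACGTCA was present in 1.79% of 32851 RefSeq promoters, TGACG in 20.8% and the CArG box in 1.63%. Of the 6 members with a promoter in the RefSeq set (Dusp1, Dusp5, Dusp6, Dusp14, Spry2 and Spred1), TGACGTCA was found in 1, TGACG in 2, the CArG box in 1 and the AP-1 motif TGANTCA, present in 7.81% of all promoters, in 0. A match describes these letters in this window.

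Levels are given as CPM, each gene's share of its library's counts on a common scale, after normalization of library composition by the trimmed mean of M values (TMM). Set per kilobase of exon in the 5 No Odour Input libraries, Dusp14 was the most abundant member (50.6 CPM per kb, SD 4.93), followed by Dusp1 (33.7, SD 2.74). Spry2 (11.9) and Dusp4 (9.75) came next, then Spred1 (5.87) and Dusp6 (5.07), and the lowest levels were those of Dusp5 (2.62), Spry4 (2.22), Sik1 (1.79) and Crem (0.768 CPM per kb). The ranges over the pools did not overlap between Dusp14 and Dusp1 or between Dusp1 and Spry2, whereas those of Spry2 and Dusp4 overlapped, as did those of Dusp5 and Spry4 and of Spry4 and Sik1. The level per kilobase of Dusp14 exceeded that of 96.4% of the genes tested and that of Crem exceeded 31.6%.

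Before any odour, 4 of 10 members were already more abundant in the Ribo than in the Input libraries at an adjusted p-value under 0.001 (edgeR quasi-likelihood test), where 19.8% of all genes tested were. These were Dusp5 (log2 ratio 0.75 ± 0.11, SE, adjusted p = 3.9e-06), Sik1 (0.55 ± 0.09, adjusted p = 1.3e-05), Dusp14 (0.49 ± 0.07, adjusted p = 9.9e-07) and Dusp4 (0.41 ± 0.06, adjusted p = 5.2e-06). No member was called lower, where 16% of all genes were, and Spry4 had the lowest log2 ratio (-0.22 ± 0.09, adjusted p = 0.030). Fitted on the No Odour libraries alone, the calls of Sik1 (adjusted p = 0.0016) and Dusp4 (adjusted p = 0.0028) were lost (edgeR).

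In the pulldown, Sik1, Dusp1 and Spry2 rose with each of the 3 odours, Spred1 rose with NCD and HFD, Dusp14 with NCD and Dusp4 with HFD. That made 5 of 10 members called higher with NCD, 3 with Bacon and 5 with HFD, against 1.93%, 1.74% and 2.55% of all genes tested that were called higher (edgeR, adjusted p under 0.001). None was called lower, where 1.55%, 1.83% and 1.79% of all genes were (6 members had an unadjusted p under 0.05 in either direction with NCD and Bacon and 7 with HFD), and DESeq2 with the same design called 5, 5 and 6 higher and 1, 1 and 0 lower, the lower one being Dusp6. The median log2 fold change of the 10 members in the pulldown was 0.24, 0.17 and 0.36, where the median over all genes was 0.00303, 0.0184 and -0.0113. Fitted on the Bacon and No Odour libraries alone, the Bacon calls of Dusp1 (adjusted p = 0.0031) and Spry2 (adjusted p = 0.0019) were lost and that of Sik1 was not (adjusted p = 6.0e-05, edgeR). The 3 comparisons share the same 5 No Odour pools, so their counts are not separate evidence.

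In the Input libraries fewer members were called. Sik1 and Dusp1 were called higher with NCD and HFD, where 0.553% and 0.619% of all genes were, and of the members only Sik1 was called with Bacon, where 5.15% were (edgeR). DESeq2 called 2, 3 and 4 members higher with NCD, Bacon and HFD. It added Dusp1 (adjusted p = 6.4e-05) and Spred1 (adjusted p = 3.2e-04) with Bacon, and Spred1 (adjusted p = 4.8e-04) and Dusp4 (adjusted p = 8.1e-04) with HFD. Fitted on the 2 groups compared alone, the Input calls of Dusp1 with NCD (adjusted p = 0.0038) and HFD (adjusted p = 0.030) and of Sik1 with HFD (adjusted p = 0.0020) were lost (edgeR). For the pulldown-to-input ratio, which asks whether a transcript gained more in the pulldown than in the whole tissue of the same pools, 0 of 10 members were called with any odour, where 0.524% (NCD), 3.78% (Bacon) and 1.22% (HFD) of all genes were called in either direction. At an unadjusted p under 0.05 the ratio fit counted 3, 5 and 3 members, and DESeq2 called 1, 2 and 1 at its adjusted p under 0.001, Spry2 with each odour and also Dusp14 with Bacon.

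**Figure D1:**
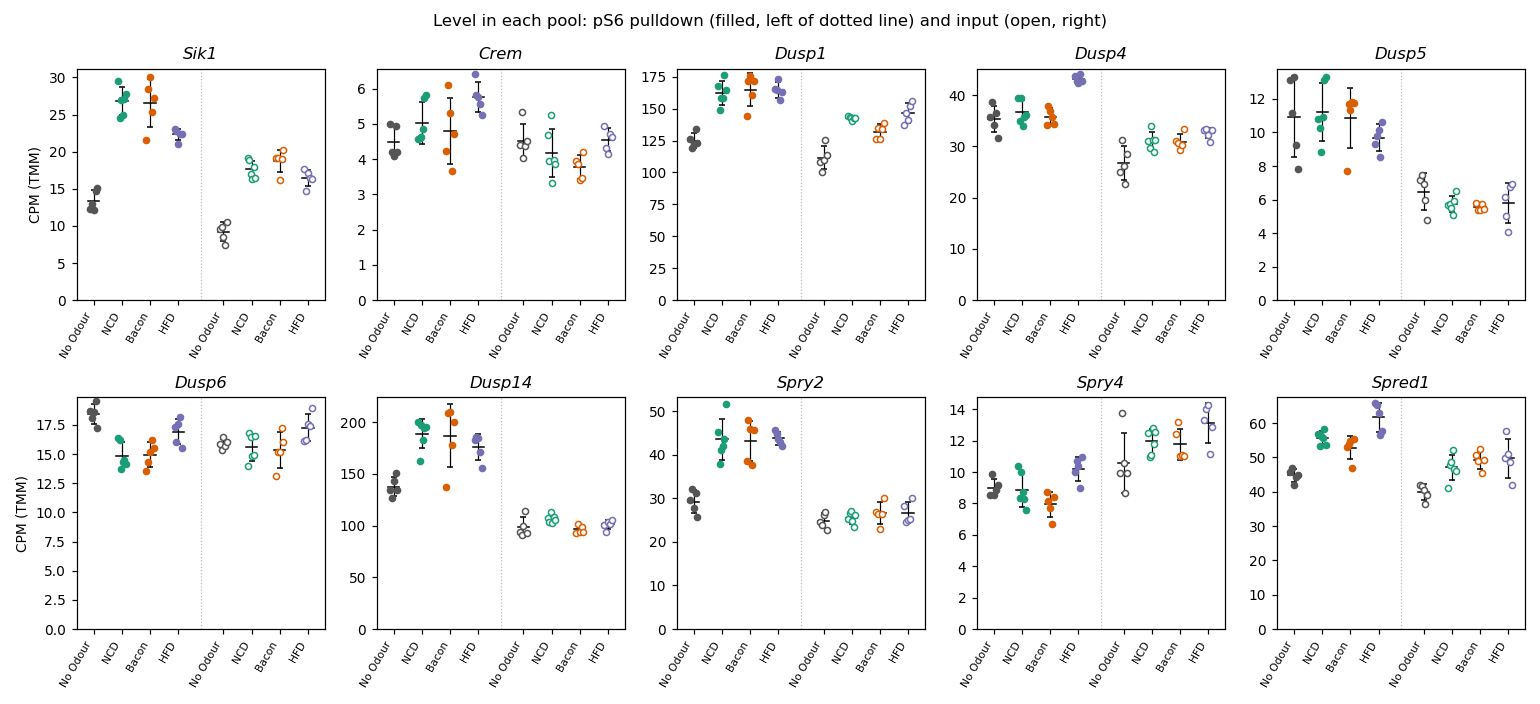
Level of each member in every pool, in CPM on a linear axis from 0, with the Ribo libraries as filled points left of the dotted line and the Input libraries as open points right of it. Bars are the mean and SD over 5 or 6 pools, and in the Sik1 panel every odour pool lies above every No Odour pool on both sides.

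The library composition differed with exposure, which bears on every comparison with No Odour. Genes that encode or resemble ribosomal RNA took a mean of 28.1% of the counts in No Odour Input libraries, against 15.8% with NCD, 11.8% with Bacon and 15.6% with HFD. In the Ribo libraries they took 23.9%, 14.6%, 14.6% and 13.4%. With this share added to the fit, members called higher in the pulldown numbered 2 with NCD, 2 with Bacon and 2 with HFD, and in the Input libraries 0 with each odour. The 2 pulldown calls left with each odour were those of Spry2 and Sik1. The members' SEs in the pulldown and in the Input libraries were larger in this fit (for Sik1 in the Input libraries with NCD 0.14, against 0.08). The share of all genes called in this fit is not given here, so the lower counts cannot be set against it. Input libraries held 21.7% to 32.2% without odour and 9.75% to 21.9% with odour, so that the ranges overlapped at their ends. Ribo libraries held 14.6% to 28.5% without odour and 10.7% to 21.7% with odour, a wider overlap. The part of this share in the calls that were lost was not tested further. Mitochondrial messenger RNA took 1.15% to 1.45% of the Input counts without odour. It took 0.958% to 1.07% with NCD, 0.869% to 1.30% with Bacon and 0.790% to 1.02% with HFD. The part of the mitochondrial share was not tested.

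Sik1, at chr17:31844250-31855804 on the minus strand of GRCm38 (GENCODE M21), is a salt-inducible kinase, made on cyclic AMP signalling, that keeps CREB coactivators out of the nucleus. In the No Odour Ribo libraries its level was 12.3, 12.9, 12.2, 14.7 and 15.1 CPM. With NCD it ran from 24.5 to 29.5 CPM with a median of 27.0, with Bacon it was 21.6, 28.4, 30.1, 25.3 and 27.3 CPM and with HFD 23.1, 22.8, 21.1, 22.3 and 22.4 CPM. Every odour pool was higher than every No Odour pool, as held for 6.05% (NCD), 3.34% (Bacon) and 8.83% (HFD) of all genes tested, and the 5 HFD pools lay close together at the low end of the odour range. The pulldown log2 fold change was 0.99 ± 0.08 with NCD (adjusted p = 2.6e-09, edgeR), 0.98 ± 0.08 with Bacon (adjusted p = 6.4e-09) and 0.73 ± 0.08 with HFD (adjusted p = 7.7e-07).

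Sik1 rose in the whole tissue as well. Its Input level was 9.65, 9.87, 8.55, 7.38 and 10.6 CPM without odour, 16.4 to 19.1 CPM with NCD (median 17.4), 19.2, 19.2, 16.2, 18.9 and 20.2 CPM with Bacon and 17.6, 14.7, 17.1, 16.4 and 16.4 CPM with HFD. Again every odour pool was higher, as for 5.84%, 13.7% and 5.22% of all genes tested. The Input log2 fold change was 0.93 ± 0.08 (NCD, adjusted p = 5.4e-08, edgeR), 1.02 ± 0.09 (Bacon, adjusted p = 1.7e-08) and 0.83 ± 0.09 (HFD, adjusted p = 1.1e-06). The ratio of pulldown to input differed by 0.06 ± 0.12, -0.05 ± 0.12 and -0.10 ± 0.12 on the log2 scale, each less than its SE. With the share of ribosomal RNA counts in the fit Sik1 kept its call in the pulldown with each odour (log2 fold change 0.94, 0.92 and 0.67), and in the Input libraries its log2 fold changes were 0.92, 1.01 and 0.82 with adjusted p = 0.0013, 0.010 and 0.0080 (edgeR).

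Crem, a CREB-family factor whose short ICER products block cyclic AMP response elements, was the least abundant member and was not called in any comparison. Counts are per gene, so ICER transcripts are not separated from the longer ones. Its Ribo level was 4.99, 4.21, 4.10, 4.95 and 4.21 CPM without odour and 6.42, 5.81, 5.77, 5.57 and 5.25 CPM with HFD. All 5 HFD pools lay above the No Odour pools, as for 8.83% of all genes tested, with a log2 fold change of 0.36 ± 0.12 (adjusted p = 0.037, edgeR), while the NCD and Bacon pools overlapped them (0.16 ± 0.12 and 0.10 ± 0.12). Words of 31 bases that other genes also carry made up 6.57% of its transcripts. Crem also overlaps Gm6225 on the opposite strand (mean count 46.7, against 142.5 for Crem). As the use of strand in the counting is not given in the sources used here, reads of that stretch cannot be assigned with certainty.

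Among the nuclear, inducible phosphatases, Dusp1 (MKP-1, chr17:26505590-26562128, minus strand) was the one that rose with every odour. Its pulldown level was 126, 119, 123, 134 and 123 CPM without odour, from 149 to 177 CPM with NCD (median 161), 144, 172, 175, 161 and 172 CPM with Bacon and 165, 165, 173, 156 and 163 CPM with HFD. No odour pool reached down into the No Odour range (6.05%, 3.34% and 8.83% of all genes tested had every odour pool higher). The pulldown log2 fold changes of Dusp1 were nearly equal, at 0.38 ± 0.05 (adjusted p = 3.4e-05, edgeR), 0.40 ± 0.06 (adjusted p = 2.5e-05) and 0.40 ± 0.06 (adjusted p = 2.3e-05).

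In the Input libraries Dusp1 measured 108, 101, 110, 125 and 114 CPM without odour. It measured 140 to 145 CPM with NCD (median 143), 126, 135, 126, 134 and 139 CPM with Bacon and 137, 147, 141, 152 and 156 CPM with HFD. The lowest Bacon pool stood just above the highest No Odour pool, and NCD and HFD pools were clear of them (every odour pool was higher for 5.84% of all genes tested with NCD, 13.7% with Bacon and 5.22% with HFD). The Input log2 fold change was 0.35 ± 0.06 with NCD (adjusted p = 2.7e-04, edgeR), 0.39 ± 0.06 with HFD (adjusted p = 1.5e-04) and 0.24 ± 0.06 with Bacon, which missed the threshold (adjusted p = 0.0017). With the share of ribosomal RNA counts in the fit the pulldown log2 fold changes were 0.35, 0.37 and 0.36 with adjusted p = 0.0076, 0.0047 and 0.0092, so each missed the threshold. Dusp1 overlaps Ergic1 on the opposite strand, and as the use of strand in the counting is not given in the sources used here, reads of the shared stretch cannot be assigned with certainty.

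Dusp4 (MKP-2, chr8:34807297-34819894, plus strand), a nuclear phosphatase of ERK and JNK, differed from Dusp1 in that it was called with 1 odour only. Its Ribo level was 43.8, 42.7, 42.4, 44.1 and 42.8 CPM with HFD, against 35.8, 38.6, 34.2, 36.6 and 31.7 CPM without odour. With NCD it ran from 33.9 to 39.5 CPM (median 36.0) and with Bacon it was 34.2, 37.9, 36.8, 35.7 and 34.3 CPM. The HFD pools thus lay above all other Ribo libraries (1.8% of all genes tested had every HFD pool above every NCD pool and 1.96% above every Bacon pool), and the log2 fold change over No Odour was 0.29 ± 0.06 (adjusted p = 9.0e-04, edgeR), against 0.05 ± 0.06 with NCD and 0.02 ± 0.06 with Bacon. Tested directly, the pulldown level with HFD differed from NCD by 0.24 ± 0.05 (adjusted p = 0.030) and from Bacon by 0.27 ± 0.06 (adjusted p = 0.016), which passed 0.05 but not 0.001. In the Input libraries the log2 fold change of Dusp4 was 0.21 ± 0.07, 0.21 ± 0.07 and 0.29 ± 0.07 (adjusted p = 0.023, 0.018 and 0.0060), and pools overlapped. The HFD call was lost in 15 of 21 fits that left out 1 pool, and also with the share of ribosomal RNA counts in the fit (0.39 ± 0.08, adjusted p = 0.0040).

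Dusp5 (chr19:53529109-53542431, plus strand), a nuclear phosphatase that acts on ERK, had the highest No Odour log2 ratio of the 10 and no call against No Odour. The level in the Ribo libraries was 13.2, 11.2, 13.3, 9.26 and 7.79 CPM without odour, a spread that took in nearly all odour pools. The log2 fold change was 0.04 ± 0.13, -0.01 ± 0.14 and -0.17 ± 0.14 in the pulldown and -0.17 ± 0.12, -0.22 ± 0.13 and -0.16 ± 0.13 in the Input libraries. With the share of ribosomal RNA counts in the fit its direction turned in the Input libraries (0.28, 0.39 and 0.29, adjusted p = 0.71, 0.80 and 0.68, edgeR) and in the pulldown with Bacon (0.29, adjusted p = 0.44) and HFD (0.16, adjusted p = 0.69), and with NCD the pulldown value was 0.33 (adjusted p = 0.33). The SE was larger than for Dusp1, and changes of that size were not detectable at this spread. Of its 31-base words 21.2% also occur in transcripts of other genes, so some of its estimated counts may belong to them.

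Dusp6 (MKP-3, chr10:99263231-99267489, plus strand), the cytosolic ERK phosphatase, had the lowest pulldown log2 fold change of the members with NCD and with Bacon, whereas with HFD that of Dusp5 was lower. It measured 18.7, 18.1, 18.6, 19.5 and 17.2 CPM without odour, 13.7 to 16.4 CPM with NCD (median 14.4), 13.5, 14.3, 15.2, 16.2 and 15.5 CPM with Bacon and 17.3, 16, 17.5, 18.1 and 15.5 CPM with HFD. All NCD and Bacon pools were below all No Odour pools, as for 4.78% and 4.54% of all genes tested, and the HFD pools overlapped them. The log2 fold change was -0.31 ± 0.07 (adjusted p = 0.0020, edgeR), -0.30 ± 0.07 (adjusted p = 0.0037) and -0.13 ± 0.07 (adjusted p = 0.22), none past 0.001. In the Input libraries it was -0.03 ± 0.07, -0.05 ± 0.07 and 0.12 ± 0.07. The ratio was lower by -0.28 ± 0.09, -0.25 ± 0.10 and -0.24 ± 0.10 (adjusted p = 0.048, 0.067 and 0.089), with every Bacon and HFD pool below every No Odour pool, as for 6.2% and 5.46% of all genes tested.

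Dusp14 (chr11:84048041-84069261, minus strand), a small phosphatase that lacks the MAP kinase binding domain of the others, was called higher in the pulldown with NCD. Its Ribo level was 134, 127, 143, 151 and 134 CPM without odour, 162 to 200 CPM with NCD (median 195), 137, 209, 210, 178 and 200 CPM with Bacon and 182, 186, 185, 172 and 156 CPM with HFD. NCD and HFD pools were all above the No Odour pools, as for 6.05% and 8.83% of all genes tested, and of the Bacon pools replicate 1 fell among them. The log2 fold change was 0.45 ± 0.09 with NCD (adjusted p = 6.0e-04, edgeR), 0.44 ± 0.09 with Bacon (adjusted p = 0.0012) and 0.35 ± 0.09 with HFD (adjusted p = 0.0059). Its Input log2 fold change was 0.12 ± 0.06, -0.03 ± 0.06 and 0.04 ± 0.06. The NCD call was lost in 9 of 21 fits that left out 1 pool, and without Bacon replicate 1 Dusp14 was called with each odour (adjusted p = 3.1e-06, 9.8e-07 and 1.1e-04). Fitted on HFD and No Odour libraries alone, Dusp14 was called with HFD (0.35 ± 0.06, adjusted p = 1.7e-04, edgeR). The NCD call was also lost with the share of ribosomal RNA counts in the fit (0.41, 0.39 and 0.30, adjusted p = 0.061, 0.077 and 0.21, edgeR), and the Input log2 fold changes were 0.23, 0.13 and 0.16.

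For the log2 ratio of Dusp14, No Odour pools stood at 0.51, 0.48, 0.52, 0.40 and 0.53. NCD pools ran from 0.66 to 0.89 (median 0.84), Bacon pools stood at 0.56, 1.04, 1.16, 0.85 and 1.08 and HFD pools at 0.85, 0.99, 0.83, 0.75 and 0.56. No odour pool overlapped the No Odour pools, where 5.73% (NCD), 6.45% (Bacon) and 5.04% (HFD) of all genes tested had every odour pool higher. The difference of the ratio was 0.33 ± 0.09 (adjusted p = 0.019, edgeR), 0.45 ± 0.10 (adjusted p = 0.0016) and 0.31 ± 0.10 (adjusted p = 0.031).

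**Figure D2:**
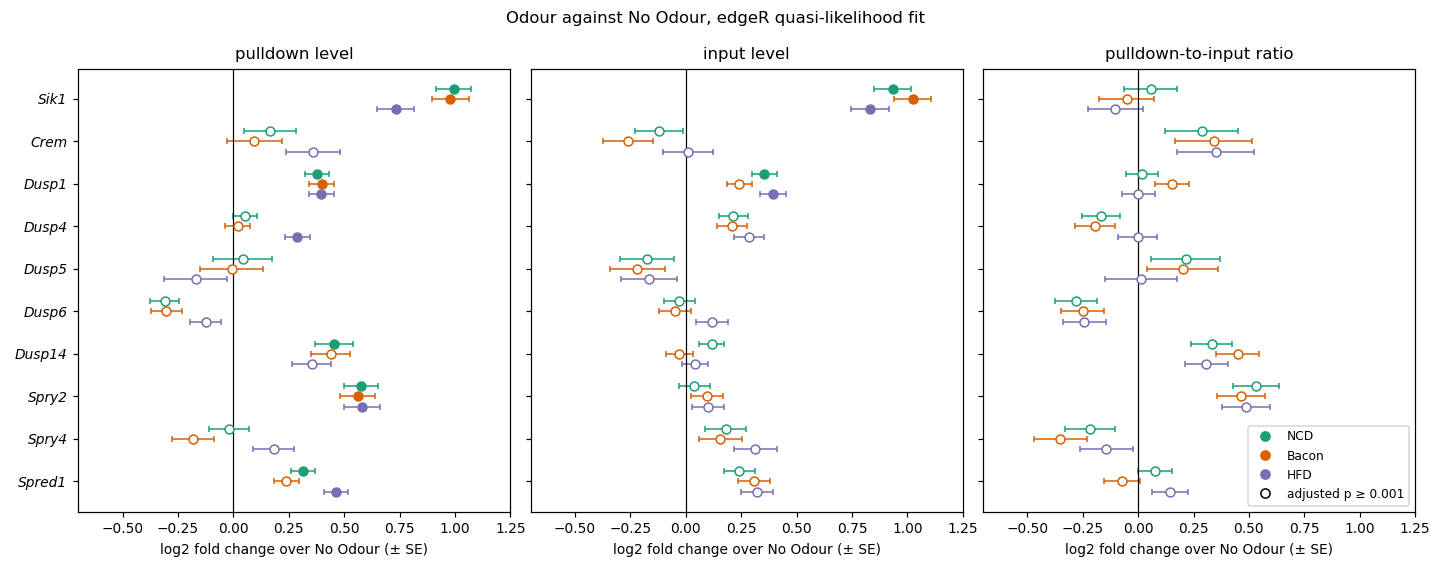
log2 fold change over No Odour with its SE (horizontal axis) of each member (vertical axis) in the pulldown, the input and the pulldown-to-input ratio, one colour per odour, filled where the edgeR adjusted p-value was under 0.001. Sik1 and Dusp1 lie to the right in both the pulldown and the input panel, whereas Spry2 and Dusp14 lie to the right in the pulldown and ratio panels and near 0 in the input panel.

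Of the inhibitors that act upstream of ERK, Spry2 (sprouty 2, chr14:105891947-105896819, minus strand) rose in the pulldown with each odour. In the Ribo libraries it measured 29.6, 32.1, 27.8, 31.2 and 25.6 CPM without odour, 38.0 to 51.7 CPM with NCD (median 42.7), 38.6, 47.9, 45.8, 37.6 and 45.7 CPM with Bacon and 45.6, 44.9, 43.5, 42.8 and 41.9 CPM with HFD. Every odour pool was higher than every No Odour pool, as for 6.05%, 3.34% and 8.83% of all genes tested. The pulldown log2 fold change was 0.58 ± 0.08 with NCD (adjusted p = 1.4e-05, edgeR), 0.56 ± 0.08 with Bacon (adjusted p = 2.8e-05) and 0.58 ± 0.08 with HFD (adjusted p = 1.6e-05).

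In the tissue Spry2 measured 24.6, 24.0, 26.2, 26.8 and 22.7 CPM without odour, and pools of each odour overlapped that range, with log2 fold changes of 0.04 ± 0.07, 0.10 ± 0.07 and 0.10 ± 0.07. Its log2 ratio was 0.27, 0.42, 0.09, 0.22 and 0.17 without odour. It ran from 0.51 to 0.98 with NCD (median 0.80) and was 0.52, 0.85, 0.99, 0.50 and 0.60 with Bacon and 0.69, 0.87, 0.79, 0.76 and 0.48 with HFD. The ratio pools did not overlap those without odour either, with every odour pool higher for 5.73%, 6.45% and 5.04% of all genes tested. The ratio differed by 0.53 ± 0.10 (adjusted p = 0.0023, edgeR), 0.46 ± 0.11 (adjusted p = 0.0033) and 0.49 ± 0.11 (adjusted p = 0.0041), each past 0.05 and short of 0.001, and DESeq2 gave adjusted p = 1.63e-04, 5.66e-04 and 6.90e-04. With the share of ribosomal RNA counts in the fit the pulldown log2 fold changes of Spry2 were 0.70, 0.69 and 0.73, each past the threshold. Its Input log2 fold changes were then 0.29, 0.43 and 0.35 (adjusted p = 0.42, 0.55 and 0.29, edgeR), and the ratio differed by 0.49 (adjusted p = 0.0087), 0.37 (adjusted p = 0.12) and 0.46 (adjusted p = 0.0081), so that Bacon no longer passed 0.05.

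Spred1 (chr2:117121374-117182279, plus strand), which keeps Ras from activating Raf, measured 45.7, 46.9, 42, 44.3 and 45 CPM in the No Odour Ribo libraries. It measured 53.4 to 58.2 CPM with NCD (median 56.0), 53.1, 54.0, 54.9, 47.0 and 55.4 CPM with Bacon and 66.0, 65.3, 62.8, 56.6 and 57.9 CPM with HFD. The groups did not overlap with any odour (every odour pool was higher for 6.05%, 3.34% and 8.83% of all genes tested), though Bacon replicate 4 was level with the highest No Odour pool. The pulldown log2 fold change was 0.46 ± 0.06 with HFD (adjusted p = 2.3e-06, edgeR), 0.32 ± 0.05 with NCD (adjusted p = 2.1e-04) and 0.24 ± 0.06 with Bacon (adjusted p = 0.0041). HFD and Bacon differed by 0.22 ± 0.06 when compared with each other (adjusted p = 0.058). Its Input log2 fold change was 0.24 ± 0.07, 0.31 ± 0.07 and 0.32 ± 0.07 (adjusted p = 0.016, 0.0016 and 0.0042) and its ratio differed by 0.08 ± 0.08, -0.07 ± 0.08 and 0.14 ± 0.08. The pulldown calls of Spred1 were lost with the share of ribosomal RNA counts in the fit (0.26, 0.19 and 0.40, adjusted p = 0.044, 0.18 and 0.0032, edgeR). Its Input log2 fold changes were then -0.01, -0.02 and 0.06.

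Spry4, a sprouty of the same family, was not called. Its Ribo level was 8.55, 9.88, 8.55, 8.85 and 9.20 CPM without odour, and pools of each odour overlapped that range, with log2 fold changes of -0.02 ± 0.09, -0.18 ± 0.09 and 0.18 ± 0.09. In the Input libraries they were 0.18 ± 0.09, 0.16 ± 0.10 and 0.31 ± 0.10, the last with adjusted p = 0.025 (edgeR). The ratio of Spry4 was the lowest of the members with Bacon (difference -0.35 ± 0.12, adjusted p = 0.035). Spry2 and Spry4 thus had pulldown log2 fold changes of 0.58 and -0.02 with NCD, a difference between genes that was not tested.

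**Figure D3:**
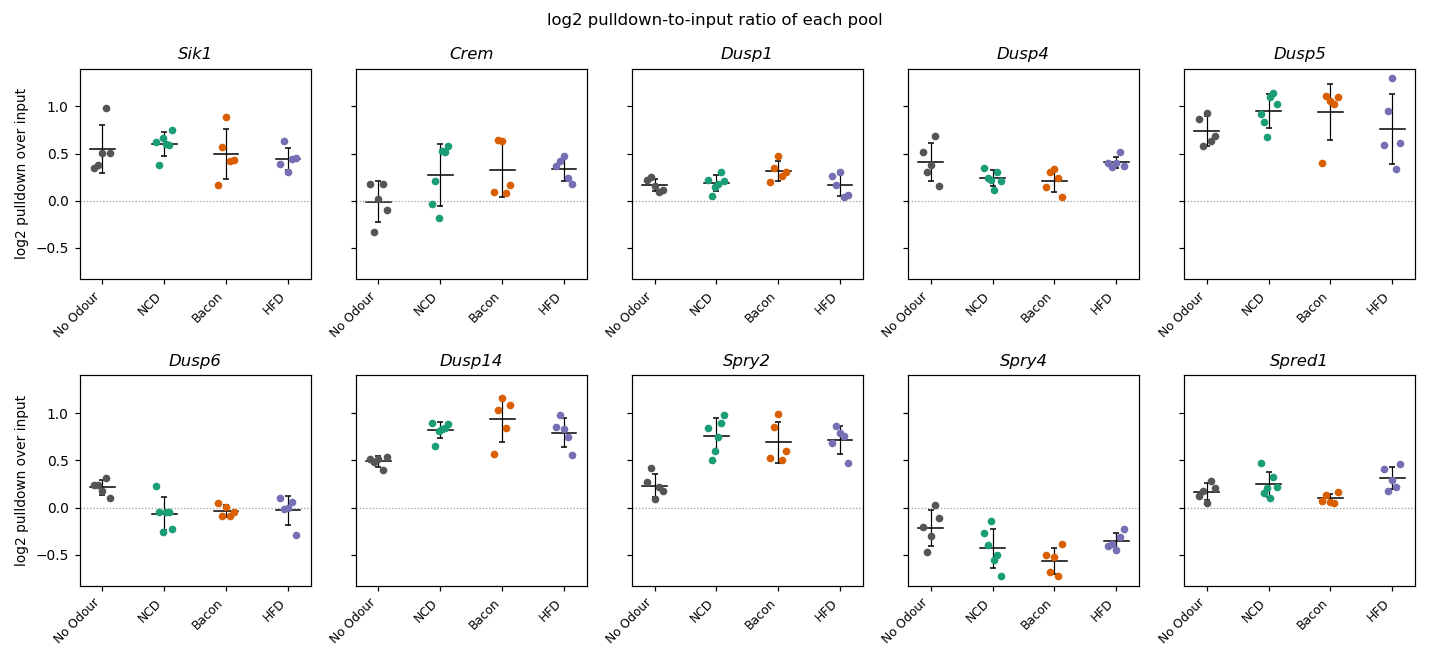
log2 ratio of pulldown to input (vertical axis) in each pool, by odour, with bars for the mean and SD over 5 or 6 pools. For Spry2 and Dusp14 all odour pools lie above the No Odour pools, for Dusp6 the Bacon and HFD pools lie below them, and for Sik1 and Dusp1 the groups overlap.

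The odours were also set against one another. Over Bacon against NCD, HFD against NCD and HFD against Bacon, 0 of 10 members were called in the pulldown, in the input and in the ratio (edgeR, adjusted p under 0.001), where 0.161%, 0.25% and 0.269% of all genes were called in the pulldown, 0.104%, 0.0567% and 0.0803% in the input and 0.00945%, 0.0236% and 0.0378% in the ratio. At an unadjusted p under 0.05 there were 0, 5 and 6 members in the pulldown, 1, 1 and 4 in the Input libraries and 0, 0 and 2 in the ratio, and DESeq2 called 1 in the pulldown and 0 in the others. The Bacon and NCD pulldown levels of Sik1 differed by -0.01 ± 0.08, those of Dusp1 by 0.02 ± 0.05 and those of Spry2 by -0.01 ± 0.08. For Sik1, HFD against NCD gave -0.26 ± 0.08 (adjusted p = 0.11). These SEs leave room for differences of about that size that were not detectable with 5 or 6 pools per odour.

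Other genes of the pathway were counted from lists of known members. Of 16 tested relatives (other Dusp, Spry, Spred and Sik genes and the CREB-family genes Creb1 and Atf1), 1 was called higher in the pulldown with NCD, 0 with Bacon and 1 with HFD, and none lower (edgeR, 7, 9 and 11 at an unadjusted p under 0.05, and DESeq2 called 4, 1 and 5 higher). With NCD it was Dusp3, a small phosphatase of ERK and JNK (log2 fold change 0.31 ± 0.06, adjusted p = 5.2e-04, edgeR). Sik3, the broadly expressed relative of Sik1, had a lower ratio with HFD (-0.57 ± 0.09, adjusted p = 2.6e-04), with mean levels of 97.9 CPM without odour and 87.0 CPM with HFD in the pulldown and 79.2 and 104 CPM in the Input libraries. Sik2 rose in the Input libraries with Bacon (0.40 ± 0.07, adjusted p = 1.0e-04), as did 2 other relatives, in a comparison with 5.15% of all genes called higher.

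The cascade on which these brakes act was counted in the same way. Of 21 genes of the ERK cascade from receptor adaptors to kinases, 2, 0 and 1 were called higher and 1, 1 and 1 lower with NCD, Bacon and HFD (edgeR, 8, 11 and 8 at an unadjusted p under 0.05, and DESeq2 called 2, 1 and 2 higher and 1, 1 and 1 lower). The adaptor Shc1 fell by 0.37 on the log2 scale with NCD (SE 0.06, adjusted p = 1.5e-04, edgeR). In the Input libraries 5 were called higher and 1 lower with Bacon and 0 with the other odours (10 with NCD and 11 with HFD at an unadjusted p under 0.05, and 5 and 4 higher by DESeq2), and Sos1, the exchange factor that loads Ras, rose with Bacon (0.55 ± 0.09, adjusted p = 5.4e-05). Its ratio with Bacon differed by -0.45 ± 0.09 (adjusted p = 9.9e-04).

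Of 15 genes of the JNK and p38 branches, 1 was called higher in the pulldown with NCD, the neuronal kinase Mapk10 (0.36 ± 0.06, adjusted p = 2.5e-04, edgeR), and none with the other odours (7 and 4 at an unadjusted p under 0.05, and 2 and 1 by DESeq2). Map3k4 rose in the Input libraries with Bacon (0.49 ± 0.10, adjusted p = 3.5e-04), where 2 of the 15 were called. For Mapkapk2 the ratio with HFD differed by -0.31 ± 0.08 (adjusted p = 0.012).

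Transcripts that ERK and CREB are known to switch on were called in both directions. Of 12 other ERK-driven transcripts, 1, 1 and 1 were called lower in the pulldown and 0, 0 and 1 higher (edgeR, 6, 5 and 4 at an unadjusted p under 0.05, and DESeq2 called 2, 1 and 1 higher). Cyclin D1 (Ccnd1) fell by 0.64 on the log2 scale in the pulldown with Bacon (SE 0.07, adjusted p = 6.0e-07, edgeR), and its ratio fell by 0.63 with HFD (SE 0.09, adjusted p = 4.6e-05). Ier3 fell by 0.90 in the Input libraries with Bacon (SE 0.09, adjusted p = 7.5e-07). Among 11 immediate early genes, 3, 4 and 2 were called higher in the pulldown and 1, 1 and 0 lower (6, 6 and 6 at an unadjusted p under 0.05, and DESeq2 called 4 higher with each odour). Egr1 rose in the pulldown by 1.18 ± 0.08 with NCD (adjusted p = 5.5e-10) and by 0.95 ± 0.06 in the Input libraries with Bacon (adjusted p = 5.6e-11). Arc had a lower ratio with HFD (-1.12 ± 0.20, adjusted p = 6.0e-04).

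Of 15 genes of the cyclic AMP and CREB pathway, 2, 3 and 3 were called higher in the pulldown and 2, 5 and 3 in the Input libraries, and none lower in either (edgeR, 5, 5 and 6 at an unadjusted p under 0.05 in the pulldown and 7, 10 and 8 in the Input libraries, and DESeq2 called 1 lower, in the Input libraries with Bacon). Nr4a1, an orphan nuclear receptor driven by CREB, rose with Bacon by 1.62 ± 0.13 in the pulldown (adjusted p = 1.2e-08, edgeR) and 1.46 ± 0.09 in the Input libraries (adjusted p = 1.1e-10). The coactivator gene Crebbp had a lower ratio with Bacon (-0.67 ± 0.13, adjusted p = 6.3e-04). As with Sik1, Nr4a1 and Egr1 changed in both kinds of library, and each member's log2 fold change over No Odour was smaller than that of Nr4a1 in the pulldown and in the Input libraries.

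**Figure D4:**
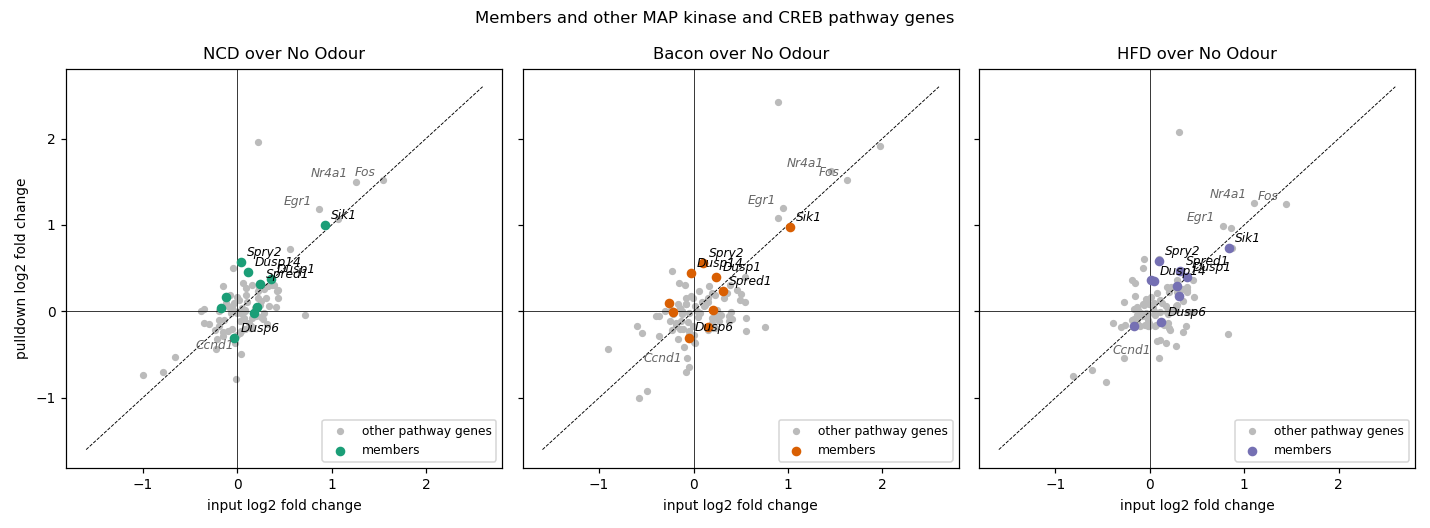
Input (horizontal axis) against pulldown (vertical axis) log2 fold change over No Odour of the 10 members (coloured) and other MAP kinase and CREB pathway genes (grey), one panel per odour. Sik1 and Dusp1 lie near the dashed line of equal change with Egr1, Fos and Nr4a1 further along it, while Spry2 and Dusp14 lie above it.

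Ranked by the correlation of the log2 ratio over the 21 pools, the genes most like Dusp14 were Smim26 (Pearson's r = 0.965) and Rps25 (r = 0.96), a ribosomal protein gene. Those most like Spry2 were Abhd14a (r = 0.882) and Pkib (r = 0.879), which encodes an inhibitor of the cyclic AMP-dependent kinase. For Sik1 they were Unc5b (r = 0.827) and Wwc1 (r = 0.819), and for Dusp1 2310010J17Rik (r = 0.864) and Pop4 (r = 0.823). For Dusp5 the first was Jund (r = 0.786), a partner in the AP-1 factor. These values are descriptions over pools that share their odour groups and were picked as the highest of 21168 genes.

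The cell types in the libraries were described by marker sums. Of 7 markers of mature olfactory sensory neurons, Omp was the most abundant, and the sum in the Ribo libraries was 11615 CPM (SD 929) without odour, 13856 CPM (SD 436) with NCD, 13340 CPM (SD 1269) with Bacon and 12611 CPM (SD 617) with HFD, with 0 of 7 called in either direction (edgeR, 4, 6 and 1 at an unadjusted p under 0.05, and 0, 1 and 0 by DESeq2). With Bacon 2 of the 7 were called lower in the Input libraries and 2 higher in the ratio, and none with NCD or HFD. Their Input sum was 11705 CPM without odour and 10340 CPM with Bacon. Of 4 immature-neuron markers 2 were called lower in the Input libraries with Bacon. Of 4 olfactory ensheathing cell markers 3 were called lower and 1 higher in the Input libraries with Bacon. The share of all genes called lower in the Input libraries is not given here, so these counts cannot be set against it. The 4 macrophage markers summed to 76.5 CPM (SD 10.2) in No Odour Ribo libraries and to 46.8, 45.7 and 46.0 CPM with NCD, Bacon and HFD, with 3, 4 and 3 of 4 called lower and Csf1r the most abundant. Gland and duct markers, led by Bpifb9a, summed to 5144 CPM without odour and 6709, 9641 and 8295 CPM with the odours in the pulldown, with 1, 1 and 2 of 4 called higher. Bpifb9a itself measured 1315, 3815, 6340 and 4941 CPM, and 2 of the 4 markers had a log2 fold change above 0 with each odour. The Input sums of these markers were 5287 CPM without odour and 3645, 5819 and 4651 CPM with the odours. They were 6399, 6409 and 6617 CPM in No Odour replicates 1 to 3. In No Odour replicates 4 and 6 they were 3420 and 3588 CPM. In the Ribo libraries Sik1 was higher in replicates 4 and 6 (14.7 and 15.1 CPM) than in replicates 1 to 3 (12.2 to 12.9 CPM). Mature-neuron sums there were also higher (12681 and 12575 CPM, against 10817 to 11037 CPM). Dusp5 was lower there (9.26 and 7.79 CPM, against 11.2 to 13.3 CPM). The Input level of Sik1 did not split this way (9.65, 9.87 and 8.55 CPM, and 7.38 and 10.6 CPM). None of the 4 gland and duct markers was called in the Input libraries (edgeR), and DESeq2 called 1 higher with Bacon. Neurogenic progenitor markers, led by Top2a, summed to 111 CPM in No Odour Ribo libraries and 88.5, 83.9 and 94.2 CPM with the odours, with 1, 3 and 1 of 5 called lower. Fibroblast markers, led by Col1a1, summed to 1633 CPM and 1119, 1095 and 1355 CPM, with 0 of 4 called in the pulldown (edgeR, 4, 3 and 3 at an unadjusted p under 0.05, and DESeq2 called 2, 2 and 0 lower) and 2, 2 and 0 called lower in the Input libraries. Microvillous cell markers, led by Ascl3, summed to 36.6 CPM and 50.3, 44.9 and 62.1 CPM, with 1 of 3 tested called higher with HFD. The HFD sums (57.4 to 67.8 CPM) lay above those of all other Ribo libraries (at most 56.1 CPM). In the ratio 1 of the 3 was called higher with each odour, and in the Input libraries 1 was called lower with Bacon. Olfactory ensheathing cell markers, led by Fabp7, summed to 97.7 CPM and 106, 96.1 and 134 CPM, with 1 of 4 called higher with HFD and 1 lower with Bacon, and as for Dusp4 the HFD pools (125 to 143 CPM) lay above all other Ribo libraries. Neutrophil markers, led by S100a9, summed to 160.5 CPM and 109.6, 130.4 and 132 CPM, with 1 of 4 called lower with NCD. Supporting-cell markers, led by Cyp2g1, summed to 1748 CPM in the No Odour Ribo libraries and 5898 CPM in the Input libraries, with 0 of 4 called with any odour in the pulldown (edgeR, 0 at an unadjusted p under 0.05, and 0 by DESeq2). The part of these cell types in the changes of the members was not tested.

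Several libraries stood apart in composition, and among the Ribo libraries that of Bacon replicate 1 did so most. Bacon replicate 1 had the largest share of mitochondrial messenger RNA (0.456%, against 0.0326% to 0.289% in the other Ribo libraries) and the highest sum of supporting-cell markers (3465 CPM). It also had the lowest Bacon Ribo level of Sik1 (21.6 CPM), Dusp1 (144 CPM), Dusp14 (137 CPM), Dusp5 (7.70 CPM), Dusp4 (34.2 CPM) and Dusp6 (13.5 CPM). Its Spry4 level was the highest of the Bacon Ribo libraries (8.71 CPM). Without that pool, members called in the pulldown numbered 6 with NCD, 4 with Bacon and 6 with HFD. The share of all genes called without it is not given here. Dusp14 was then called higher with each odour (log2 fold change 0.45, 0.53 and 0.35, adjusted p = 3.1e-06, 9.8e-07 and 1.1e-04, edgeR) and Dusp6 lower with NCD (-0.31 ± 0.06, adjusted p = 7.3e-04). With Bacon Dusp6 stayed short of the threshold (-0.27 ± 0.07, adjusted p = 0.0065, edgeR). For the ratio, Dusp14 was then called with Bacon (0.54 ± 0.09, adjusted p = 5.0e-05) and Spry2 with NCD (0.53 ± 0.10, adjusted p = 9.95e-04). The next highest supporting-cell sums were in No Odour replicate 6 (2495 CPM), NCD replicate 2 (2472 CPM) and Bacon replicate 4 (2241 CPM). Their mitochondrial shares were 0.236%, 0.224% and 0.289%. NCD replicate 2 had the lowest NCD Ribo level of Sik1, Dusp1, Dusp14, Spry2 and Spred1, but not of the other members. Bacon replicate 4 had the lowest Bacon Ribo level of Spry2, Spred1, Spry4 and Crem. Of the No Odour Input libraries, replicate 4 had the highest erythroid (719 CPM), neutrophil (70.1 CPM) and fibroblast (2897.5 CPM) marker sums. The other No Odour Input libraries had at most 423, 39.8 and 2372 CPM. Replicate 4 also held the lowest No Odour Input level of Sik1, Dusp4, Spred1 and Spry4 and the highest of Dusp1, Dusp14 and Spry2. It belongs to the group with which every odour was compared. The part of these compositions in the members' values was not tested.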

How the data were processed

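Whole-tissue (Input) and phospho-S6 pulldown (Ribo) RNA of 21 pools, each of 4 epithelia, was sequenced. The authors deposited estimated counts per gene, made with Salmon on GRCm38 through an nf-core pipeline, in 1 table of 44674 genes and 42 libraries. The strand setting of the counting is not given in the sources used here. Of these genes 44118 were named in GENCODE M21 and 556 were not. Per library the estimated counts summed to 24839555 to 36781553 (Input, median 31457188) and 25392812 to 36738330 (Ribo, median 30313284), and 7 genes of or like ribosomal RNA were included.

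Of the deposited values 30.9% were not whole, and all were rounded to whole numbers. Genes were filtered by filterByExpr (minimum count 10), which left 21168, scaled by TMM and fitted with the quasi-likelihood test of edgeR 4.0.16 (limma 3.58.1, R 4.3.3), with robust estimation. Pulldown and input levels were each fitted over the 21 libraries of that kind with odour as the term. The ratio was fitted over all 42 libraries with a term for each pool and a pulldown-by-odour term. P-values were adjusted by Benjamini and Hochberg over all genes tested, and a gene was called at an adjusted p under 0.001. Errors after ± are standard errors of the log2 fold change, derived from the fold change and its F statistic. Levels are TMM-scaled CPM, and log2 ratios per pool used a prior count of 2. Replicates were compared in 90 pairs of libraries of the same group, of which the closest had a chi-square per degree of freedom of 3.27, so none was counted as deposited more than once. The p-values of the level fits set a difference against the spread of levels between pools. Those of the ratio fit set it against the spread between pools of the pulldown-to-input difference. The scripts for these fits were tested on simulated data.

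All 10 members were named. Of every other pathway list, the gene with the smallest p-value over the odour comparisons of the ratio, of the pulldown level and of the input level was named, and for each member up to 2 genes whose log2 ratio correlated best with it. The members and lists were chosen with earlier results of these data known. Promoter sequences were those of RefSeq on GRCm38.p6, which held 6 of the 10 members. Alternatives were other scalings (DESeq2 size factors, library totals alone), ribosomal RNA genes left out, no filter, DESeq2 1.42.0, a replicate block, no pool term, only the groups compared, an adjusted p under 0.05, the ribosomal RNA share as a covariate, other prior counts, and leaving out each pool.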

Additional observations from a re-analysis of the deposited data

Results flagged for a closer look

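In 6 of 120 groups of 5 or 6 pools (each member's level in the pulldown and in the input and its ratio) 1 pool stood far from the others by Dixon's test, where chance gives about 1 in 20. For Dusp5, Bacon replicate 1 had a pulldown level of 7.70 CPM (median of the other Bacon pools 11.7) and a log2 ratio of 0.40 (1.08). Spred1 had a pulldown level of 47.0 CPM in Bacon replicate 4 (54.4). The log2 ratio of Sik1 was 0.99 in No Odour replicate 4 (0.44), that of Dusp14 was 0.66 in NCD replicate 2 (0.84) and that of Dusp4 was 0.51 in HFD replicate 5 (0.38).

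For Dusp4 the direct comparison of odours passed an adjusted p of 0.05 but not the threshold of 0.001. Its pulldown level with HFD exceeded that with NCD by 0.24 on the log2 scale (adjusted p = 0.030, edgeR) and that with Bacon by 0.27 (adjusted p = 0.016), with all 5 HFD pools above all NCD pools (as for 1.8% of all genes tested) and above all Bacon pools (1.96%).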

How the results depend on the processing

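The values here are counts of the 10 members called, summed over the 3 comparisons where odours are set against each other. Shares of all genes called under the alternatives are not given here. None of the 18 called values over No Odour changed sign under these alternatives, but of all 90 member values 17 did with library totals alone and 13, among them those of Dusp5 in the input, with the share of ribosomal RNA counts in the fit. At an adjusted p under 0.05 the ratio counted 3, 3 and 2 members (NCD, Bacon, HFD), the pulldown with Bacon 6, the input 4, 4 and 5, the odours against each other in the pulldown 2 (Dusp4 in both HFD comparisons) and the No Odour ratio 9. DESeq2 counted 1, 2 and 1 for the ratio, 6 for the pulldown with Bacon, 3 and 4 for the input with Bacon and HFD, and 1 between odours in the pulldown. Without ribosomal RNA genes, and without the filter, the ratio counted 1 with Bacon. Fits of only the groups compared counted 1 for the pulldown with Bacon, 6 with HFD (Dusp14 gained), 1 and 0 for the input with NCD and HFD, and 2 for the No Odour ratio. With the share of ribosomal RNA counts in the fit the pulldown counted 2 with NCD and 2 with HFD and the input 0, 0 and 0. With scaling by library totals alone the median log2 fold change of all genes in the input was 0.207, 0.325 and 0.212, against -0.0178, 0.0106 and -0.0107 with TMM, and the input then counted 5, 7 and 6, values that hold this shift. The cause of these differences was not tested.

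With the replicate number as a block the pulldown counted 3 with NCD and the input 1 with NCD and 1 with HFD. The numbers did not pair the samples of different odours: Ribo libraries with the same number had a median correlation of deviations of 0.00919 over 27 pairs (lowest -0.345), and Input libraries 0.02. Pulldown and input libraries of the same odour and number had a median of 0.0142 over 21 pairs (lowest -0.0792). Those of the same odour and other numbers had -0.00416 over 90 pairs. The pool term of the ratio fit rests on this pairing by number, which the deviations barely show.

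Leaving out 1 pool gave 0 to 1 (NCD), 0 to 1 (Bacon) and 0 to 0 (HFD) for the ratio, 3 to 6, 3 to 4 and 4 to 6 for the pulldown, and 1 to 2, 1 to 2 and 1 to 3 for the input. The ratio with NCD counted 1 without Bacon replicate 1, and that with Bacon 1 without Bacon replicate 1 or HFD replicate 1. The pulldown with NCD counted 3 without No Odour replicate 3. The input with NCD counted 1 without No Odour replicate 1, 2 or 3, that with Bacon 2 without No Odour replicate 4 or HFD replicate 2 or 6, and that with HFD 1 without No Odour replicate 2. Between odours it gave 0, and for the No Odour ratio 4 to 4. With 5 or 6 pools a group, differences near the SEs given were not detectable.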
